A study of Mus musculus with 2 samples.

Results

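The m6A reader and eraser genes are described here through the C-to-U editing sites listed for them in RNA of NeuN-sorted nuclei from mouse cortex. The set holds 8 genes chosen by name: the YTH-domain genes Ythdc1, Ythdc2, Ythdf1, Ythdf2 and Ythdf3, the hnRNP gene Hnrnpa2b1, and the demethylase genes Alkbh5 and Fto. Of the 6929 genes with a site, 7 are in this set. They carried 16 of the 17755 listed sites, and Ythdf1 carried 0.

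The study has 1 group of 2 libraries and no comparison group. Nuclei of mouse cortex were fixed with 50% ethanol, stained for NeuN, a nuclear protein of neurons, and sorted by flow. The mice were of the genotype APOBEC1-YTH, in which a cytidine deaminase is joined to a YTH domain; the fusion binds N6-methyladenosine (m6A) and turns nearby cytidines into uridines, which are read as C-to-T changes. All mice were 10 weeks old when tamoxifen began (20 mg/kg every 24 hours for 5 days), and tissue was collected 7 days after the last dose. The labels name neither the promoter or Cre that drives the fusion nor the YTH protein its domain was taken from, nor how many animals each library holds. One label gives polyA RNA and the protocol gives a total RNA kit, so the RNA fraction is uncertain.

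The authors deposited 1 value per site for both libraries together: an editing fraction, given here as the editing level in percent. How the libraries were joined is not stated, so a level may come from pooled reads, from a mean of libraries or from 1 library. No value per library and no read depth is given, so each value below is single, without a replicate error, an interval or a test. Every SD below is a spread across sites of a gene. A site records converted RNA that was sequenced; a gene without a site can have little RNA, few expressing nuclei, or little methylation, and these cannot be told apart. Markers of other cell types held many sites. Of 40 markers of astrocytes, oligodendrocytes, microglia and blood vessels, 29 had sites, 327 in all, of which 189 were in the 10 astrocyte markers and 45 in Aqp4 alone. Of 10 neuronal markers 5 had a site, 19 sites in all, and Rbfox3, which encodes NeuN, had 0. Of all protein-coding genes, 28.3% had a site. Counted by site, levels were higher in the neuronal markers, with a median of 5.56% against 1.85% for sites of the 40 other markers. At 10% or more stood 7 of the 19 neuronal marker sites and 10 of the 327 others. All 7 were in Celf4 and Syt1, and sites of the same gene share their transcripts. Counted by gene, the gap was smaller, with a median of gene means of 3.835% against 2.457%. By that measure the blood vessel markers stood above the neuronal ones. The marker lists were chosen with earlier results of these data known. From which cells the RNA of the reader and eraser genes came was not tested.

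m6A is placed on RNA in the nucleus by a methyltransferase complex, read by proteins that bind the methylated base, and removed by iron-dependent demethylases. In nuclei, YTHDC1 takes part in splicing and export of methylated transcripts, while the cytoplasmic YTHDF proteins are known for effects on decay and translation. In brain, m6A is abundant, and the pathway has been studied in neuronal development, axon growth and memory.

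Sites were unevenly spread over the 8 genes. Ythdc1 had 5 sites and Ythdf3 had 4, Ythdf2 and Hnrnpa2b1 had 2 each, and Ythdc2, Alkbh5 and Fto had 1 each. Thus 7 of 8 genes (87.5%) had a site, against 28.3% of the 21900 protein-coding genes in the RefSeq table (6196 genes). That background includes genes that cortex does not express and many short ones. In the length classes that hold the 8 genes, 10 equal groups of all protein-coding genes ranked by span, the share with a site ran from 22.1% for the class of Hnrnpa2b1 to 50.2% for the class of Fto. Among genes with a site, at least 4 sites were found in 2 of these 7 (28.6%), against 20% of all listed genes, and a single site in 3 of these 7 (42.9%), against 49.2% of all listed genes.

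Relative to span length the order changed. Hnrnpa2b1, the shortest gene with a span of 9615 bases, had the highest density at 0.208 sites per kb of span. Ythdc1 followed at 0.153 and Ythdf3 at 0.118, and Ythdf2 had 0.0732. Alkbh5 stood at 0.0480 and Ythdc2 at 0.0161. Fto, whose span of 355067 bases is the longest, had 0.00282. Densities over spans count introns as well as exons, since exon positions were not used here.

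**Figure D1:**
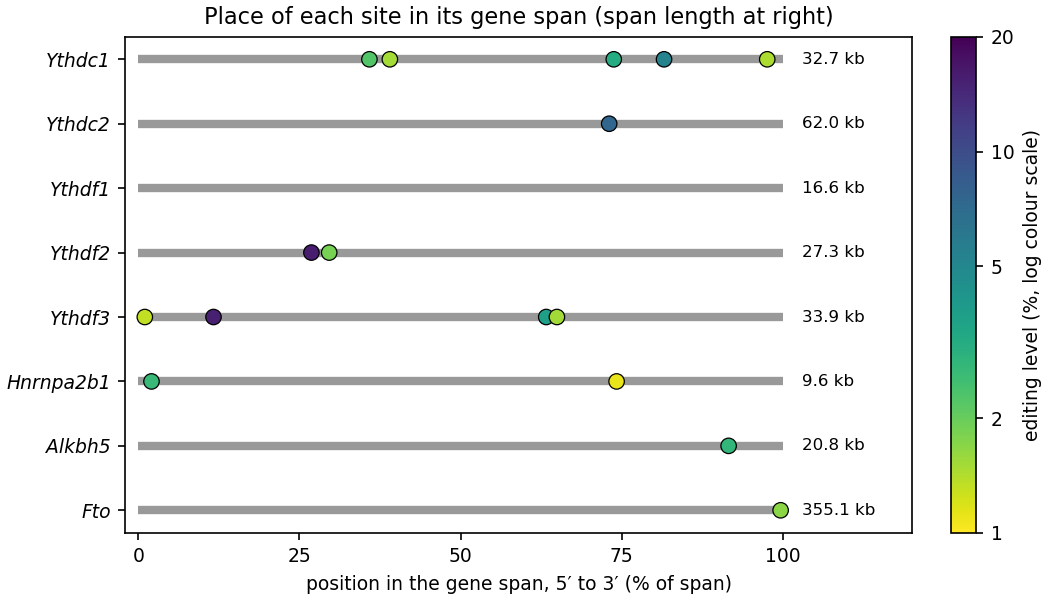
Place of each listed site in its gene (x axis, percentage of the gene span from the 5′ end to the 3′ end; rows, the 8 genes, with span length at the right); point colour gives the editing level in percent on a log scale. The single sites of Alkbh5 and Fto lie close to the 3′ end, at 91.6% and 99.7% of the span. Both Ythdf2 sites lie in the 5′ part of the span, at 26.9% and 29.6%. Spans include introns, so place in the span is not place in the mRNA.

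Editing levels were mostly low, as in the list as a whole. The 16 sites ran from 1.10% to 15.79% with a median of 2.46%, against a median of 3.64% for all listed sites (quartiles 2.01% and 6.90%). Of the 16 levels, 11 lay under the median of the list. A level of at least 2% was reached by 9 of the 16 sites (56.3%), against 75.4% of all sites, and a level of at least 5% by 4 of the 16 (25%), against 37.2%. At 10% or more stood 2 of the 16 sites (12.5%), against 14.9% of all sites. With 16 sites in 7 genes these shares are counts of a few bases, and sites of the same gene share their transcripts. The list has a floor at 1%, and how many reads a site needed to be listed is not given in the sources used here, so levels of different genes may rest on very different depths.

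**Figure D2:**
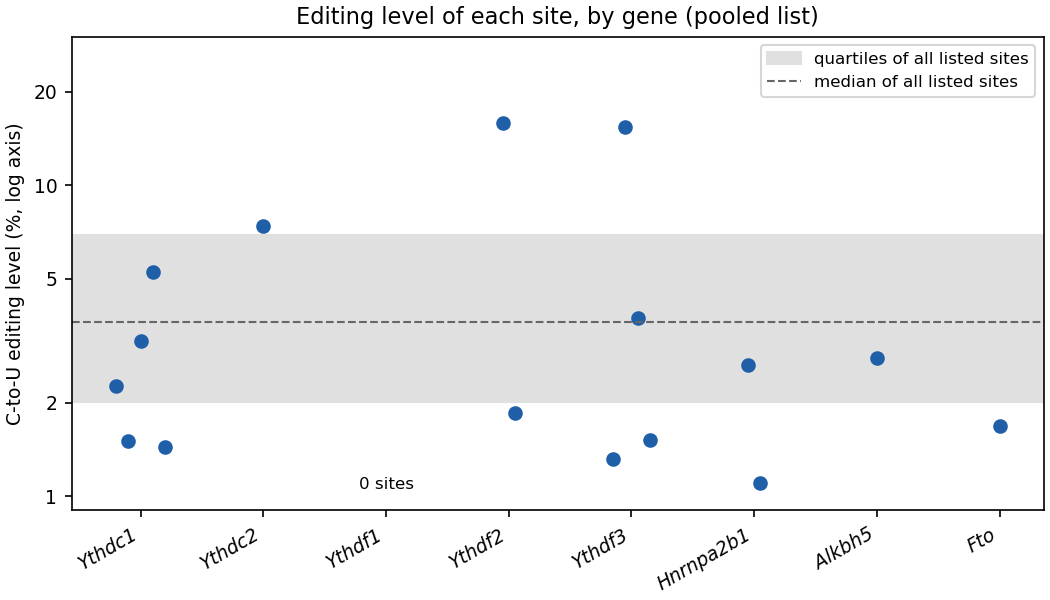
Editing level of each site (y axis, percent, log axis) by gene; points are single sites of the pooled list in 5′ to 3′ order, the dashed line is the median of all 17755 sites (3.64%) and the grey band their quartiles (2.01% to 6.90%). The 2 highest points, 15.79% in Ythdf2 and 15.38% in Ythdf3, stand above all others, of which the next is 7.41% in Ythdc2.

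Ythdc1 encodes the nuclear YTH reader, which binds m6A on pre-mRNA and on chromatin-associated transcripts. Exactly 5 sites were listed for 272 genes, Ythdc1 included, and 937 listed genes (13.5%) had at least as many. The gene spans chromosome 5, 86803980 to 86836659 on the plus strand. From the 5′ end, the levels were 2.26% at position 86815697, 1.5% at 86816731, 3.16% at 86828084, 5.26% at 86830633 and 1.44% at 86835867. The mean was 2.72% ± 1.58 (SD across 5 sites), and the highest level was 3.65 times the lowest.

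The Ythdc1 sites formed no tight cluster. The closest pair lay 1034 bases apart, at 35.9% and 39.0% of the span, and the widest gap was 11353 bases. The remaining sites followed at 73.8%, 81.6% and 97.6% of the span. The last one was 792 bases from the 3′ end and was the only Ythdc1 site within 5 kb of it. That site also had the lowest level of the 5, and 4 of the 5 levels lay under the median of the list.

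Ythdc2 encodes a YTH-domain RNA helicase that is required for meiosis in mouse germ cells. It had a single site, at position 44873015 of chromosome 18 on the plus strand, in a span from 44827730 to 44889720. The level was 7.41%, which exceeded 76.9% of all listed sites. The base lay 45285 bases from the 5′ end and 16705 bases from the 3′ end of the span, at 73.1% of its length. Among the 8 genes it was the highest level of a gene with a single site.

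The YTHDF proteins are cytoplasmic paralogs whose YTH domains are much alike, and YTHDF2 is best known for bringing the CCR4-NOT deadenylase to methylated mRNA. Their 3 genes differed in sites: Ythdf3 had 4, Ythdf2 had 2 and Ythdf1 had 0. Ythdf1 spans chromosome 2, 180904377 to 180920936, a length of 16560 bases; in its length class 27.0% of protein-coding genes had a site. Whether Ythdf1 RNA was present in these nuclei is not known from the list.

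Ythdf2 is on the minus strand of chromosome 4, from 132184916 to 132212256. Its upstream site, at position 132204915, was edited at 15.79%, the highest level of the whole set and above 95.1% of all listed sites. Its downstream site, at 132204161, had 1.85%, above 21.4% of all sites. Thus 754 bases separated levels that differed 8.54-fold.

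The position of the Ythdf2 sites needs care, because the editor itself carries a YTH domain and reads of its transgene could be placed on a YTH gene. Both sites lay inside the Ythdf2 span and far from its 3′ end, at 19999 and 19245 bases, and 7341 and 8095 bases from its 5′ end. Without exon positions, neither base could be placed in or out of the exon that encodes the YTH domain. Both carried the strand of Ythdf2. Transgene reads placed on Ythdf2 would also lie in its span and could carry its strand, so neither trait can decide the question. Whether transgene reads add to either level was not tested. Without Ythdf2, 14 sites remained in 6 genes, with a median level of 2.46%. That median is unchanged because the levels of the Ythdf2 sites lie on either side of it.

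Ythdf3 lies on the plus strand of chromosome 3, from 16183148 to 16217037. From the 5′ end its levels were 1.32% at position 16183488, 15.38% at 16187101, 3.75% at 16204593 and 1.52% at 16205156. The mean was 5.49% ± 6.68 (SD across 4 sites), a spread wider than the mean, and the highest level was 11.7 times the lowest. The site at 15.38% exceeded 94.1% of all listed sites, while the first and last of the 4 exceeded 8.43% and 13.7%.

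Both YTHDF genes with sites therefore had a single site above 15% and the others under 4%, while no Ythdc1 site went above 5.26%. In Ythdf3 as in Ythdf2 the highest site lay in the 5′ part of the span, at 11.7% of its length in Ythdf3 and 26.9% in Ythdf2. The other Ythdf2 site lay at 29.6%, so for Ythdf2 this held whichever site was higher. Spans include introns, so these figures do not give the place of a site in the mRNA. The first Ythdf3 site was 340 bases from the 5′ end, and the last pair lay 563 bases apart, at 63.3% and 64.9% of the span. None of the 4 Ythdf3 sites was in the last 5 kb; the one nearest to the 3′ end was 11881 bases away.

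Hnrnpa2b1 encodes an abundant nuclear RNA-binding protein that acts in splicing and RNA transport and has been proposed as a reader of m6A. It lies on the minus strand of chromosome 6, from 51460434 to 51470048. The level was 2.65% at position 51469852, and 1.10% at 51462914, the lowest of the set and above 2.82% of all listed sites. The sites were 6938 bases apart. The first was 196 bases from the 5′ end of the span, and the second was 2480 bases from the 3′ end.

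The first Hnrnpa2b1 site was the only one of the 16 that fell in a promoter window of the RefSeq table (GRCm38.p6, 250 bases before to 50 after each annotated start), so its surrounding bases can be shown. The table holds windows for 6 of the 8 genes, with 2 for Hnrnpa2b1. The site lay 42 bases after the start at position 51469894 and 7 bases before the start at 51469845. The first line below gives the 30 bases around it, chr6:51469838-51469867 on the minus strand, and the second gives the window of the upstream start, chr6:51469845-51470144 on the minus strand; both read 5′ to 3′ with the edited C in capitals.
Hnrnpa2b1 site: cggcggtctcggctcCagcggcagtagcag
Hnrnpa2b1 start window: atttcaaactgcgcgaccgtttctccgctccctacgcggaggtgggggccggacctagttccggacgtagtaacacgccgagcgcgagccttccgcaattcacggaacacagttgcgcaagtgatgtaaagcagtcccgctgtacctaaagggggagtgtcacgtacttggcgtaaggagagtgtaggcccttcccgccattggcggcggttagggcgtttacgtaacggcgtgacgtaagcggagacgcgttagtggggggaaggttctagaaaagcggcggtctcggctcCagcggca

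The base in the list is a C in this sequence, and the base before it is also a C. m6A is commonly found in an AC dinucleotide preceded by purines, so 4 motifs of this form were searched on the gene's own strand, as printed, where they cannot overlap each other. The motif GGAC occurred 2 times in the window shown and is found in 65.7% of the 32851 promoter windows of this length. The motif AGAC occurred 1 time, with its C 45 bases on the 5′ side of the edited C, the nearest of the 4, and is found in 66.4% of windows. The motif GAAC occurred 1 time and is found in 60.3% of windows. The motif AAAC also occurred 1 time, and is found in 62.1% of windows. After the start at 51469894 the window held 0 of these motifs. The gene span begins further upstream, at 51470048, and the AGAC and the GAAC lie inside it. At least 1 of the motifs is in 98.0% of all windows. Of all listed sites, 160 lay in such windows on their own strand, and all 160 were a C there. Of the 159 with a base before them in the window, 83 (52.2%) followed a G, 37 (23.3%) a C, 21 (13.2%) an A and 18 (11.3%) a T. How often any C of these windows follows each base was not counted, so these shares alone do not show a preference.

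The erasers Alkbh5 and Fto encode dioxygenases that remove the methyl group from m6A; FTO also acts on the related cap-adjacent m6Am. Each had 1 site at a low level. Alkbh5, on the plus strand of chromosome 11 (60537683 to 60558512), was edited at 2.78% at position 60556759, above 38.3% of all listed sites. Fto, on the plus strand of chromosome 8 (91313367 to 91668433), was edited at 1.68% at position 91667199, above 17.7% of all listed sites. The 2 sites lay 1753 and 1234 bases from the 3′ end of their genes, so both erasers had their site in the last 5 kb.

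Fto was the only gene of the 8 whose span overlaps another gene of the RefSeq table. The long noncoding RNA gene 4831440D22Rik lies within it and had 1 site, at position 91450839 on the minus strand, edited at 8.33%. A further site inside the Fto span carried the name Gm45292, which the table does not hold; it was at 91452421 on the plus strand, the strand of Fto, and was edited at 7.69%. Both lay far from the Fto site, at 217594 and 216012 bases from the 3′ end of Fto. To which transcript the conversions at these bases belong was decided by the authors' annotation. None of the 16 sites of the set lay inside the span of another gene. Hnrnpa2b1 has Cbx3 as its nearest neighbour, 106 bases beyond its 5′ end, and Cbx3 had 0 sites.

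Of the 16 sites, 9 lay past the middle of their gene span, but most were not close to its 3′ end. Within 5 kb of the 3′ end lay 4 of 16 sites (25%), 1 each in Ythdc1, Hnrnpa2b1, Alkbh5 and Fto, against 49.7% of the 16865 listed sites inside a matched span. The median distance to the 3′ end was 12162 bases for the 16 sites and 5096 bases for the list. In the first 1 kb lay 2 of 16 (12.5%), 1 each in Ythdf3 and Hnrnpa2b1, against 8.02% of listed sites. The 12 sites outside the last 5 kb belonged to 5 genes, and the difference from the list was not tested. Neither the shares nor the median distances are matched for span length. The shortest span of the 8 genes is 9615 bases, while in listed genes with a span under 5 kb every site is counted. The count depends on the distance chosen: in the last 10 kb lay 7 of 16 sites, against 61.1% of listed sites.

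Of 12 genes for RNA methyltransferases of adenosine and their partners, 6 had a site, with 24 sites in all at a median of 2.92%. The complex that places most m6A on mRNA is encoded by 8 of them, of which 4 had a site, with 19 sites at a median of 2.3%. Mettl3 and Mettl14, its catalytic core, had 0 sites, as did Virma and Cbll1. The adaptor genes Zc3h13 and Rbm15b had 6 sites each, at means of 1.77% and 5.44%. Rbm15 had 5 at a mean of 3.44%, and Wtap had 2, at 3.64% and 11.11%. Outside the complex, Pcif1, which encodes the cap-adjacent m6Am methyltransferase, had 4 sites from 1.85% to 6.67%, and Mettl16 had 1 at 4.26%. Mettl5 and Zcchc4, which encode rRNA methyltransferases, had 0.

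Genes of other proteins proposed to bind m6A had a site in 6 of 10 cases, with 20 sites at a median of 2.23%. Prrc2a led with 8 sites from 1.23% to 4.05%, and Fxr2, a relative of the fragile X gene Fmr1, had 5 from 1.25% to 2.7%. Fmr1, Fxr1 and Elavl1 had 2 sites each, of which the Elavl1 site at 11.76% was the highest of this group, and Hnrnpc had 1 at 1.09%. Rbmx and the genes Igf2bp1, Igf2bp2 and Igf2bp3 had 0.

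Relatives of these genes were counted by family. All 4 hnRNP A/B relatives of Hnrnpa2b1 had sites, 14 in all at a median of 5.98%. In the last 5 kb lay 13 of the 14, against 1 of 2 in Hnrnpa2b1. These counts are not matched for span length, and in a span shorter than 5 kb every site is counted. Hnrnpa0 had 6 sites from 1.28% to 16.67% and Hnrnpab 5 from 1.18% to 10.0%, while Hnrnpa3 had 2 and Hnrnpa1 had 1 at 1.63%. Reads of such close relatives and their pseudogenes may be shared, and how the authors placed them is not given in the sources used here. Of 7 AlkB relatives of Alkbh5, 3 had 1 site each: Alkbh3 at 2.41%, Alkbh8 at 5.88% and Alkbh7 at 8.70%.

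Among genes whose proteins work with the YTH readers, decay factors had a site in 7 of 9 cases, with 14 sites at a median of 4.04%. The CCR4-NOT subunit genes Cnot6 and Cnot7 had 3 sites each, Cnot1 and Cnot3 had 2, and Cnot6l had 1 at 18.18%, while Cnot2 and Cnot8 had 0. The helicase gene Upf1 had 2 sites, and Rida, which encodes the protein that links YTHDF2 to RNase P/MRP, had 1 at 14.58%. Of 4 genes for nuclear partners in splicing, 3′ processing and export, 3 had a site: Srsf3 with 1 at 22.22%, Nxf1 with 2 at 1.82% and 2.53%, and Cpsf6 with 1 at 6.45%. Srsf10 had 0. For Ythdc2, the partner gene Xrn1 had 2 sites at 8.33% and 10.0%, and the germ cell gene Meioc had 0.

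**Figure D3:**
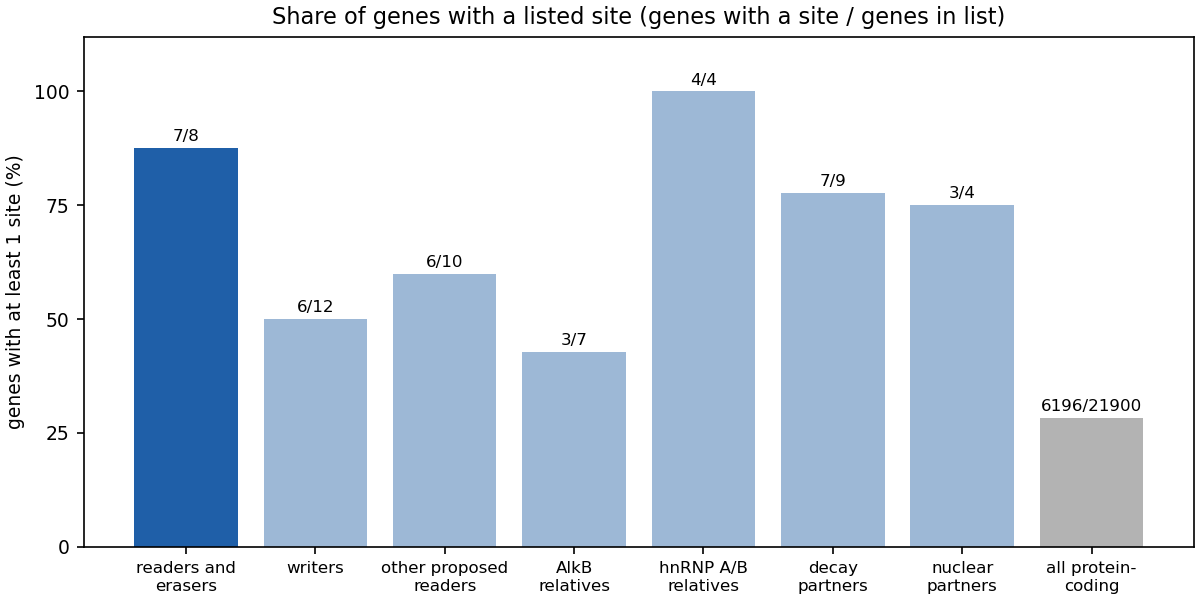
Percentage of genes with at least 1 listed site (y axis, from 0) for the reader and eraser genes, 6 lists of related genes and all protein-coding genes of the RefSeq table; the numbers over the bars are genes with a site over genes in the list. The reader and eraser genes stand at 7 of 8, the related lists between 3 of 7 (AlkB relatives) and 4 of 4 (hnRNP A/B relatives), and all protein-coding genes at 6196 of 21900 (28.3%).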

How the data were processed

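The authors deposited 1 list of single-base sites with an editing fraction per site, which is given here as a percentage. Per the series description, sites of C-to-U conversion were found with Bullseye. Per the submitters' processing notes, STAR 2.7.5 and build mm10 were used. No source used here gives Bullseye's settings, its control, a read minimum or how both libraries were joined. The number of reads behind a value is unknown.

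Sites were taken by gene name. Of 6929 names, 6456 (93.2%) matched a symbol, or a synonym of a single gene, in the RefSeq table of GRCm38.p6, the assembly of mm10. Positions are 1-based, and distances run to the ends of the gene span on the strand of the site. Length classes are 10 equal groups of protein-coding genes. Calculations used Python 3.11.15; the distance step was tested on simulated sites.

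No test was run: there is 1 group, 1 pooled list and no value per library. All 8 genes and all of their sites were to be named. The genes and the lists of related genes and markers were chosen with earlier results of these data known.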

Additional observations from a re-analysis of the deposited data

How the results depend on the processing

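Of 14 other settings, 9 left the value within 1.5 times the one reported, the limit used because no replicate spread is at hand. Some of the 9 could not move. Ythdf2 has no site in the last 5 kb, and its levels lie on either side of the median, so leaving it out changes neither value. It holds 2 of the 16 sites, so without it the number of sites had to be 14, within the limit. With only sites of 2% or more, 9 sites remained and their median level was 3.75%, against 4.88% for all sites of the list at that minimum; 6 genes had a site. With only sites of 5% or more, 4 sites in 4 genes remained (Ythdc1, Ythdc2, Ythdf2 and Ythdf3). The number of sites near the 3′ end was 7 in the last 10 kb. Sites named for other genes inside the 8 spans, on either strand, would bring the count to 18. Of these, the 4831440D22Rik site is on the minus strand, opposite to Fto. No paired analysis was possible because the series has 1 group and the list holds no value per library; for the same reason no library could be left out. Depth is unknown, so a gene with 0 sites may be under the detection limit.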
